A study of Rattus norvegicus with 6 samples.

Results

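The NIMA-related kinases (Nek genes) were followed in primary rat hippocampal neurons in which the coactivator gene Ncoa3 had been silenced. The family was chosen by a measured value, the fall of Nek7 with Ncoa3 shRNA, and its 8 listed members were then taken by gene symbol, with the brightest probe set for each gene. Of these 8 genes, 6 were on a probe set with a single gene symbol (Nek1, Nek4, Nek6, Nek7, Nek8 and Nek9), out of 18166 genes measured in all, and each had 1 probe set. Nek2 shared its probe set with a second symbol and Nek3 was on no probe set named here, so neither was analysed here. Because the Nek7 value chose the family, the differences of its members between the shRNA groups are given as a description, without p-values. Members that passed a test threshold between the groups are counted and named below beside the share over all genes, as a description only.

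There were 3 Ncoa3 shRNA arrays and 3 control shRNA arrays, 1 of each from each of 3 numbered experiments, all single-colour Affymetrix arrays. Both groups were hippocampal neurons of rat embryos (day 18) kept in 10 µM FUDR, a nucleoside analogue that blocks dividing cells. After 4 days in vitro both were infected with AAV, an adeno-associated virus, at a dose of 1800000 infectious units in each ml, carrying a short hairpin RNA against Ncoa3 or a control hairpin, and gave RNA at 14 days in vitro. The labels name no rat strain, and describe neither the promoter of the hairpin nor how many cells the virus reached. Cultures of this kind hold other cells as well as neurons, and in such bulk RNA fewer cells of a type and less RNA per cell cannot be told apart.

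The Nek proteins are serine/threonine kinases named after NIMA, a mitotic kinase of the mould Aspergillus. Nek9 is activated by the mitotic kinase Plk1 and switches on Nek6 and Nek7, a pair of short, closely related kinases that act on the spindle motor Kif11 (Eg5). Nek1 and Nek8 are known from primary cilia, and Nek1 and Nek4 from the DNA damage response. In cells that no longer divide, Nek7 is known from mice as a partner of the Nlrp3 inflammasome, the assembly that activates caspase-1, and as a kinase that acts through Kif11 on the microtubules of growing dendrites.

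The starts of Nek7 and of its closest relative Nek6 are printed because Nek7 differed most between the groups among the members and Nek6 did not go the same way. The windows run from 250 bases before to 50 after a RefSeq start (build GRCr8) and come from a table that held all 8 listed members. Capitals mark the motifs searched on both strands, which were the GC box (GGGCGG), the CCAAT box (CCAAT), a nuclear receptor half-site (AGGTCA), the core of the cell cycle element CHR (TTTGAA), the E-box (CACGTG) and the core of the cAMP response element (TGACGT). No matches overlapped in the windows of the members. The first line is Nek7 at chr13:52700774-52701073 (minus strand), and the next 2 are the listed starts of Nek6 at chr3:42693744-42694043 and chr3:42706394-42706693 (plus strand).
Nek7: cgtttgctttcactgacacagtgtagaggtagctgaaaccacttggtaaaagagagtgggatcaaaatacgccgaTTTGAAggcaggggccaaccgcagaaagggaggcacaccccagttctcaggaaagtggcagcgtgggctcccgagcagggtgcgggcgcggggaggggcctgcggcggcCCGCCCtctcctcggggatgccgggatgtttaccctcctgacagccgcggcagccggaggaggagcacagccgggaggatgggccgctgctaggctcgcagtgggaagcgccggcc
Nek6, first start: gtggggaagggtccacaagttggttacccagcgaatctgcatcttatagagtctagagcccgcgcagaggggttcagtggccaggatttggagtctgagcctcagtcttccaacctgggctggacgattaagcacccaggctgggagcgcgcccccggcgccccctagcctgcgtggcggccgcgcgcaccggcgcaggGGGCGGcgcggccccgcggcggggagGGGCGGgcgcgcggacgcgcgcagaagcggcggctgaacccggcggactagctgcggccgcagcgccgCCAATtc
Nek6, second start: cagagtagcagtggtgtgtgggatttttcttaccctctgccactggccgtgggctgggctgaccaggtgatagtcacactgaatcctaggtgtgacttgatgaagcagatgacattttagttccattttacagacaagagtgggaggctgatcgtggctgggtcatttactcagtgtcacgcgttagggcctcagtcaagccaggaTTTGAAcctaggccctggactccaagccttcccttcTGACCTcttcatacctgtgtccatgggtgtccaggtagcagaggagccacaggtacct
The Nek7 window held 1 GC box and 1 CHR core, with 65.0% G and C and 22 CpG. The first Nek6 window held 2 GC boxes and 1 CCAAT box, with 71.3% G and C and 36 CpG. The second Nek6 window held 1 nuclear receptor half-site and 1 CHR core, with 52.7% G and C and 4 CpG. Over all 33469 windows of the table the median was 51.7% G and C and 7 CpG, and the motifs were found in 33.1% (GC box), 37.5% (CCAAT box), 16.2% (nuclear receptor half-site), 18.3% (CHR core), 6.42% (E-box) and 7.94% (cAMP response core) of them. These matches describe the letters of the windows only.

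The scale of the arrays bears on every value that follows. Array medians lay between 6.81 and 6.97 on the Ncoa3 shRNA arrays and between 7.08 and 7.25 on the control shRNA arrays, and the median gene differed by -0.25 in the deposited values. Values were therefore quantile-normalized over all 6 arrays, after which the median gene differed by 0.01, and they are called normalized below. All differences are log2, Ncoa3 shRNA minus control shRNA. Of all genes, 22.4% had 1 repeated deposited value on the 3 Ncoa3 shRNA arrays and 22.5% on the 3 control arrays, which makes spreads within a group too small for them. Quantile normalization removes any true change shared by most genes. The shift of the median gene goes with the groups, so the part that array processing and the hairpin have in it cannot be told apart. Array medians also varied within each group. The labels call the arrays biological replicates from separate experiments, and their number limits the precision.

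Nek7 stood about 1 log2 unit lower with Ncoa3 shRNA, close to the difference of the silenced gene itself. The deposited signal of Nek7 (probe set 17684742) was 8.21, 8.002 and 8.39 on the Ncoa3 shRNA arrays of experiments 1, 2 and 3, against 9.27, 9.59 and 9.40 on the control shRNA arrays. All 3 Ncoa3 shRNA arrays were below all 3 control arrays, and the 6 deposited values were all different. After normalization the mean was 8.34 ± 0.188 with Ncoa3 shRNA and 9.29 ± 0.164 with control shRNA (SD, n = 3 each). The normalized difference was -0.95 ± 0.129 (SE), or 1.93-fold lower with Ncoa3 shRNA, and the deposited difference was -1.22.

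The difference of Nek7 was widest in experiment 2. By experiment the normalized differences were -0.77, -1.27 and -0.80, and the deposited ones -1.07, -1.59 and -1.01. Ncoa3 (probe set 17769041), measured on the same arrays, differed by -1.03, -1.12 and -0.77 after normalization, with a mean of -0.97 ± 0.142 (SE; limma's adjusted p = 0.00747). Nek7 was thus further apart than Ncoa3 in experiment 2, slightly so in experiment 3, and less so in experiment 1. Ncoa3 shRNA arrays 1 and 2 shared 1 deposited value of Ncoa3. Among the 18166 genes, Nek7 was number 24 and Ncoa3 number 16 when normalized differences were ordered from the lowest.

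**Figure D1:**
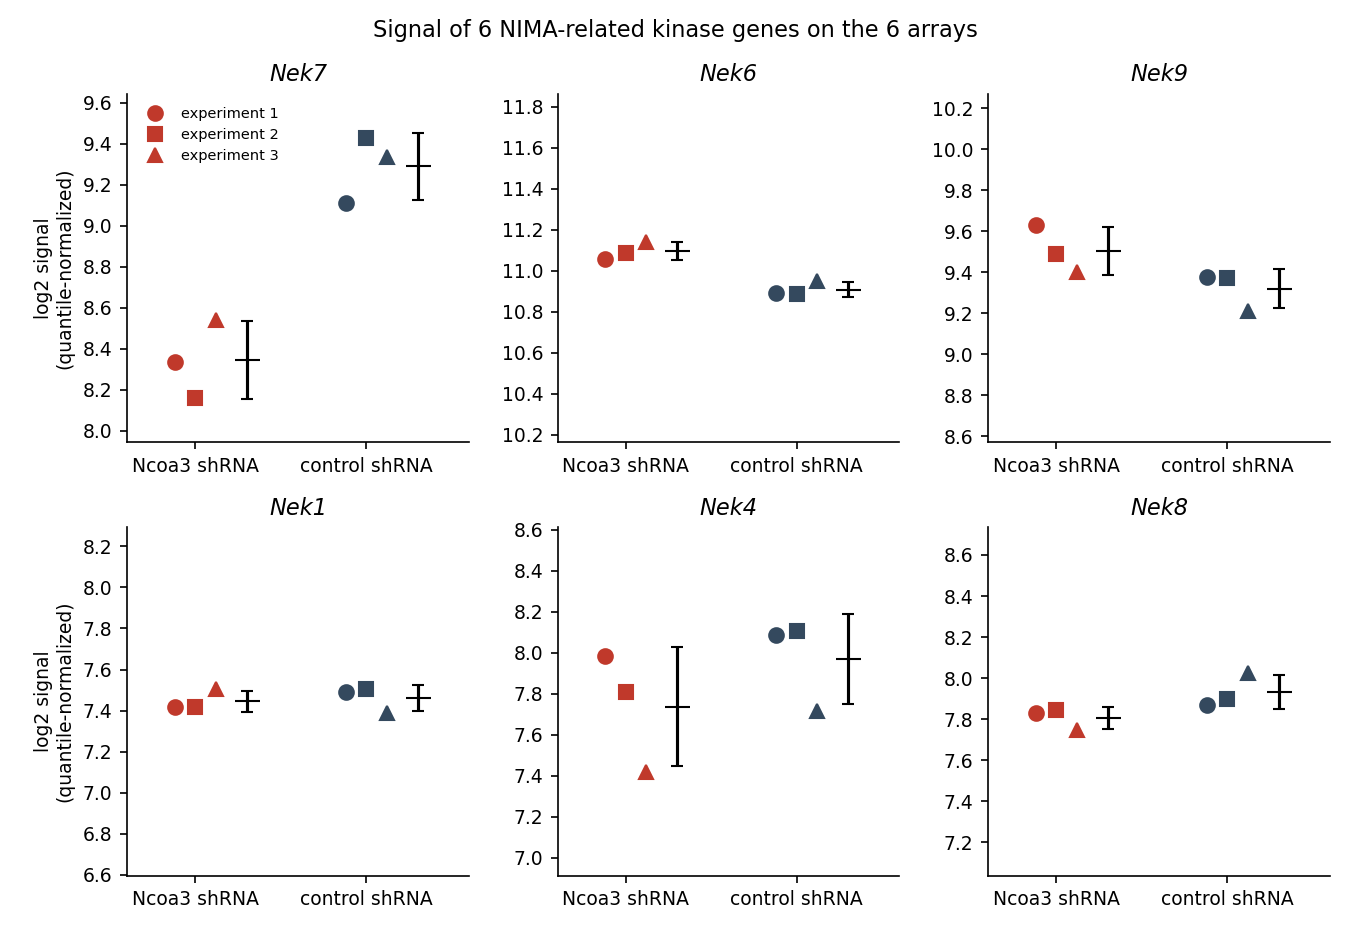
Normalized log2 signal of the 6 measured Nek genes on each array, with Ncoa3 shRNA left and control shRNA right in each panel; marker shapes are the experiments, and the bars are mean and SD (n = 3). Every panel spans the same height on the log2 scale, and Nek7 is the gene whose groups lie furthest apart, at 8.34 with Ncoa3 shRNA and 9.29 with control shRNA.

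Nek6, the nearest relative of Nek7, did not go the same way. Its normalized signal (probe set 17761892) was 11.06, 11.08 and 11.14 on the Ncoa3 shRNA arrays, against 10.89, 10.89 and 10.95 on the control arrays. The groups did not overlap, and the difference was 0.19 ± 0.0504 (SE), or 1.14-fold. In the deposited values, however, Nek6 was level, at 10.99, 11.01 and 11.01 with Ncoa3 shRNA and 11.01, 11.02 and 11.00 with control shRNA, a difference of -0.0050 with overlapping groups. The direction of Nek6 thus rests on the scaling. Ncoa3 shRNA arrays 2 and 3 shared 1 deposited value of Nek6.

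Nek9, the activator of Nek6 and Nek7, resembled Nek6. Its normalized signal (probe set 17823336) was 9.63, 9.49 and 9.40 with Ncoa3 shRNA, against 9.38, 9.37 and 9.21 with control shRNA. The groups lay just apart, by 0.19 ± 0.0888 (SE) in their means. In the deposited values the difference was -0.08 and the groups overlapped, so the sign again turned with the scaling. Control arrays 1 and 2 had the same deposited value.

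For Nek4, Nek8 and Nek1 the normalized differences were -0.23, -0.13 and -0.02, and Nek4 is counted below among the genes called lower with the experiment as a block. Nek4 (probe set 17706077) had 7.98, 7.81 and 7.42 with Ncoa3 shRNA and 8.09, 8.11 and 7.72 with control shRNA, a difference of -0.23 ± 0.177 (SE) with overlapping groups. It was lower in each experiment, and its deposited difference was -0.51. Nek8, the ciliary kinase mutated in a human kidney disease, nephronophthisis (probe set 17648906), had 7.83, 7.84 and 7.75 with Ncoa3 shRNA and 7.87, 7.90 and 8.03 with control shRNA, a difference of -0.13 ± 0.0696 (SE). Its groups did not overlap, but its deposited value was the same on all 3 Ncoa3 shRNA arrays, so the spread there came from the normalization alone. Nek1 (probe set 17711418), whose loss-of-function variants are a risk for amyotrophic lateral sclerosis in humans, had 7.42, 7.42 and 7.50 with Ncoa3 shRNA and 7.49, 7.50 and 7.39 with control shRNA. Its difference of -0.02 ± 0.0629 (SE) hid opposite signs, with -0.08 and -0.09 in experiments 1 and 2 and 0.12 in experiment 3. The deposited value of Nek1 was the same on all 3 control arrays, and its deposited difference was -0.31.

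**Figure D2:**
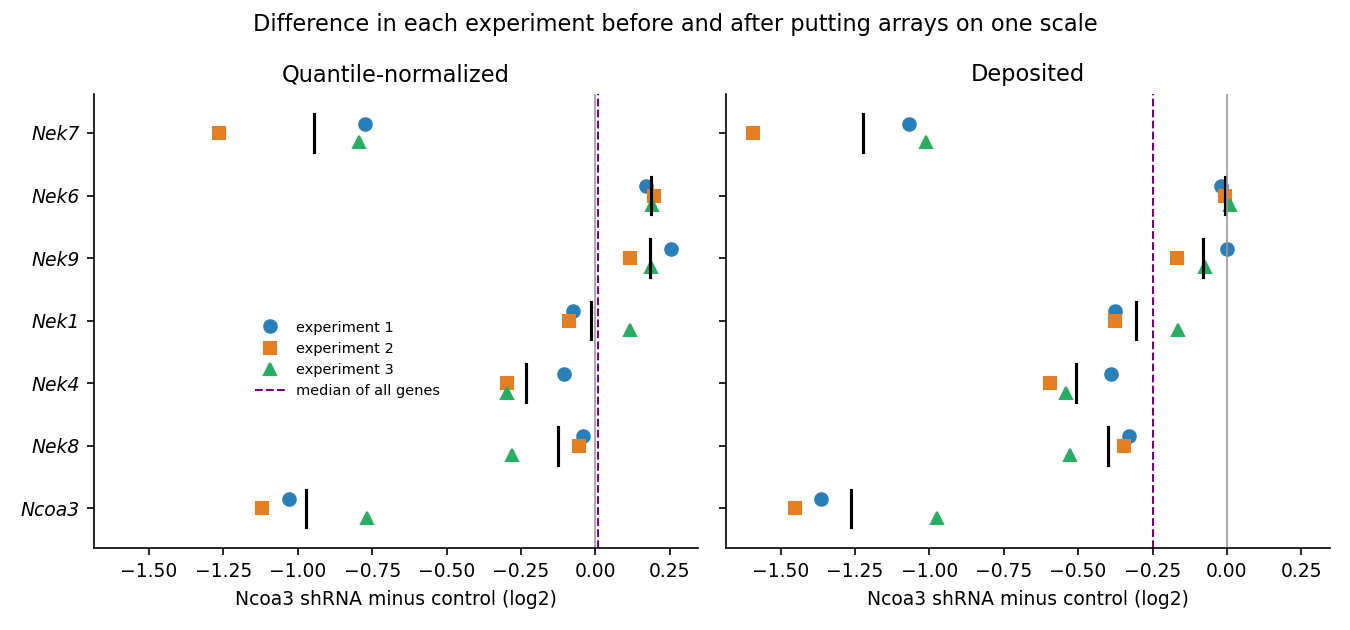
Ncoa3 shRNA minus control shRNA (log2) in each experiment for the 6 Nek genes and Ncoa3, normalized (left) and deposited (right); the black bar is the mean and the dashed line the median of all genes. Nek7 and Ncoa3 stand far left in both panels, while Nek6 moves from 0.19 in the normalized values to -0.0050 in the deposited values.

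Counted over the family, 1 of the 5 members other than Nek7 passed limma's test across all genes, which was Nek6, as higher. Over all genes 19.5% passed in either direction, 10.5% as higher and 9.04% as lower, and the contrast had chosen the family, so nothing is read from the count. When the experiment entered as a block, 3 of the 5 passed (Nek6 and Nek9 higher, Nek4 lower), where 39.3% of all genes did. In the deposited values 2 of the 5 passed (Nek1 and Nek8, both lower), where 47.2% of all genes did. The median normalized difference of the 5 genes was -0.02, against 0.01 over all genes. In the deposited values it was -0.31, against -0.25.

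Setting each gene against genes of like brightness is another way to centre the groups. The members already stood in the same order in the deposited values, so the order below adds no support. For each member the median deposited difference of the 500 genes nearest in mean signal was taken away, an alternative chosen after seeing the data. What was left was -0.96 for Nek7, the gene that chose the family, where the robust SD of its 500 neighbours was 0.194. It was 0.18 for Nek6 and 0.17 for Nek9, within the robust SDs of their neighbours (0.189 and 0.207). It was -0.25 for Nek4, beyond its robust SD of 0.209, while Nek8 at -0.14 (0.212) and Nek1 at -0.02 (0.214) lay within theirs. Nek1, Nek4 and Nek8 were below the median gene in deposited signal (7.89), whereas Nek6, Nek7 and Nek9 were above it.

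**Figure D3:**
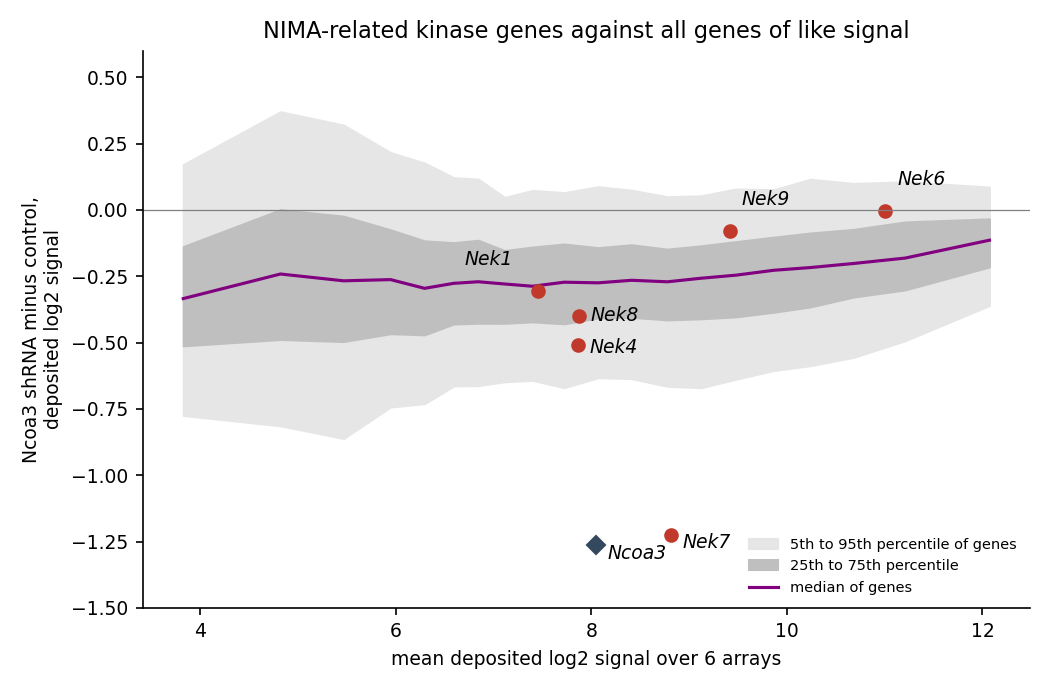
Deposited difference, Ncoa3 shRNA minus control shRNA (log2), against mean deposited log2 signal; the line and bands show the median and percentiles of all 18166 genes in 20 bins of signal. Nek7 at -1.22 and Ncoa3 at -1.26 lie below the band of the 5th to 95th percentile, and the other 5 Nek genes lie inside it.

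A pair of Nek genes outside the list was also on the arrays and was added after their values were seen. Nek10 differed by -0.41 ± 0.0672 (SE) after normalization and by -0.69 in the deposited values. Nek11 differed by -0.24 ± 0.206 (SE) after normalization and by -0.53 in the deposited values. By experiment, Nek11 had opposite signs after normalization, at -0.16, 0.04 and -0.61 in experiments 1, 2 and 3. For both genes the deposited value was the same on all 3 control arrays. Ncoa3 shRNA arrays 1 and 2 also shared 1 deposited value of Nek10, so its SE holds little replicate spread.

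The experiments gave a comparison that had no part in choosing the family. Nek4 was lowest in experiment 3 in both groups. Its normalized mean over the Ncoa3 shRNA and the control array was 7.57 in experiment 3, against 8.04 in experiment 1 and 7.96 in experiment 2. The difference of experiment 3 from experiment 1 was -0.47, and Nek4 passed limma's F test on the experiment with the group as a term (adjusted p = 0.0484), where 18.8% of all genes passed. That call was lost in the deposited values (adjusted p = 0.146), with cyclic loess (0.103) and without a trend in eBayes (0.0614), so it lies at the threshold.

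Marker genes of other cells also differed among the experiments after normalization, in both groups. The mean normalized level of 5 astrocyte markers was 9.45, 9.72 and 10.12 on the Ncoa3 shRNA arrays of experiments 1, 2 and 3, and 9.54, 9.73 and 10.03 on the control arrays. All 5 (Gfap, Aqp4, S100b, Gja1 and Slc1a3) passed the F test, each higher in experiment 3 than in experiment 1 in both groups. The level of 5 markers of dividing cells was 6.47, 6.37 and 6.197 with Ncoa3 shRNA and 6.57, 6.60 and 6.32 with control shRNA. Of them 4 (Mki67, Top2a, Ccna2 and Cenpf) passed as lower in experiment 3. Within each group these 4 genes had 1 repeated deposited value, so their differences among the experiments came from the normalization alone. Csf1r of the 6 microglia markers and Olig2 of the 5 oligodendrocyte markers passed as higher in experiment 3, and 0 of 8 neuron markers passed. The part of these cells in the Nek4 difference was not tested.

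The other 5 members did not pass that test. Nek9 also stood lower in experiment 3, by -0.20 from experiment 1 (limma's adjusted p = 0.135), and Nek7 stood higher by 0.21 (0.540). Nek6 differed by 0.07 (0.341), Nek8 by 0.04 (0.920) and Nek1 by -0.01 (0.983).

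By the measure of likeness used here, the Euclidean distance between the 6 normalized values of 2 genes after each gene's own mean was taken away, the profiles nearest to Nek7 were those of Or9i14, Or6c211, Spata19, Secisbp2l and Or4c107. Their distances were 0.260, 0.281, 0.303, 0.320 and 0.321 log2 units over the 6 arrays. Or9i14, Or6c211 and Or4c107 are olfactory receptor genes, with mean deposited signals of 5.13, 4.79 and 3.78, and Spata19, a gene of sperm mitochondria, had 5.47. Secisbp2l had a mean signal of 9.95 and was the one gene of the 5 brighter than the median gene. The 1344 olfactory and vomeronasal receptor genes on the array, which hippocampal neurons are not known for, had a median signal of 4.82, and 36.5% of them passed limma's test between the groups.

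**Figure D4:**
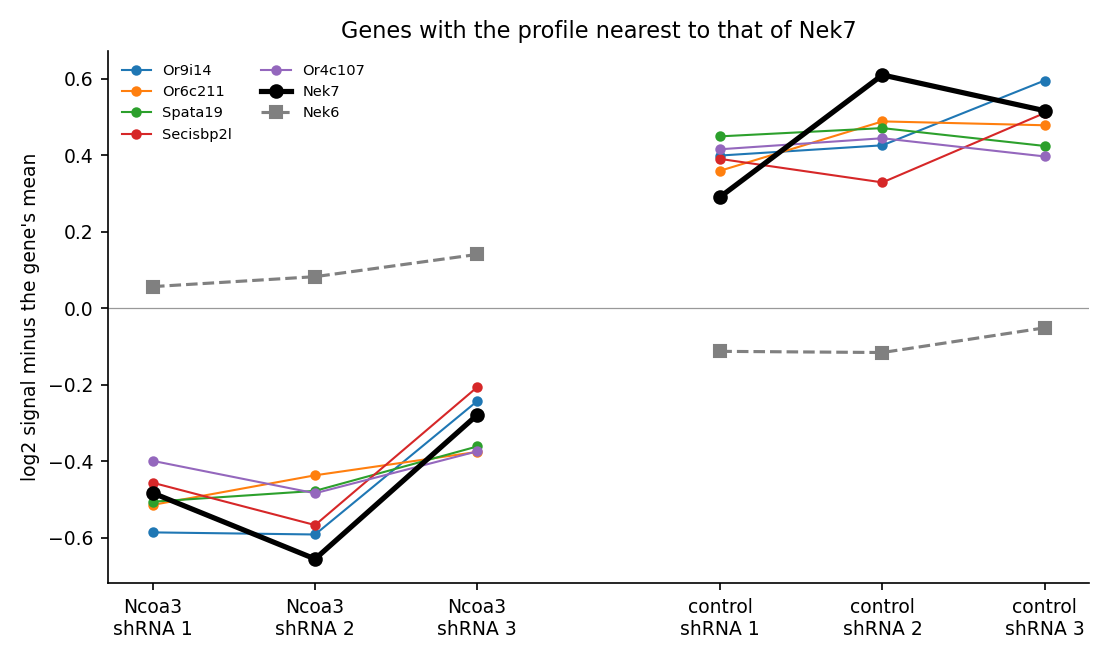
Normalized log2 signal minus each gene's own mean over the 6 arrays, with the 3 Ncoa3 shRNA arrays left and the 3 control shRNA arrays right, for Nek7 (thick black line), the 5 genes nearest to it and Nek6 (dashed). The nearest genes follow Nek7 at distances of 0.260 to 0.321, while Nek6 stands above 0 with Ncoa3 shRNA and below 0 with control shRNA.

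Genes that act with the Nek kinases were counted in 6 lists by role. Of 50 distinct genes 41 were measured, and 4 of them rose and 4 fell in limma's test, 19.5% of the measured genes, the same share as over all genes. When the experiment entered as a block, 9 rose and 8 fell (41.5%, against 39.3% of all genes). Their median normalized difference was 0.01, as over all genes. The count was 0 without experiment 1 and 0 without experiment 2, with 6 and 5 genes at an unadjusted p under 0.05, and 21 without experiment 3. Of all genes 1.23% passed without experiment 1, 0% without experiment 2 and 46% without experiment 3.

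In the spindle pathway of Nek9, Nek6 and Nek7, 2 of 7 measured genes rose and 0 fell, with 3 at an unadjusted p under 0.05. Over all genes 19.5% passed. Kif11, the spindle motor that Nek6 and Nek7 phosphorylate, rose by 0.31 ± 0.0690 (SE; limma's adjusted p = 0.0272). Nedd1, which brings gamma-tubulin complexes to the spindle, rose by 0.33 ± 0.0666 (SE; adjusted p = 0.0214). Their deposited differences were only 0.03 and 0.05. Within each group Kif11 had 1 repeated deposited value, as Nedd1 had on the 3 Ncoa3 shRNA arrays, so their SEs hold little or no replicate spread. Plk1, the activator of Nek9, stood at 0.11 (adjusted p = 0.382), the mitotic kinase gene Cdk1 at -0.24 (0.0712) and the gamma-tubulin gene Tubg1 at -0.03 (0.813). When the experiment entered as a block, 3 of the 7 were higher and 2 lower, where 39.3% of all genes passed. In that fit Plk1 (limma's adjusted p = 0.0402) passed as higher and Cdk1 (0.00589) and the spindle factor gene Tpx2 (0.0220) as lower. Tpx2 had 1 repeated deposited value within each group, as Cdk1 had on the 3 Ncoa3 shRNA arrays, so that spread came from the normalization alone.

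Of 8 measured genes of the Nlrp3 inflammasome 1 rose, 2 fell and 5 did not pass, where 19.5% of all genes passed. Casp1, the gene of caspase-1, fell by 0.52 on the log2 scale (SE 0.0518; limma's adjusted p = 0.00217), and Pycard, the adaptor that links it to Nlrp3, fell by 0.28 (SE 0.0722; adjusted p = 0.0452). Il18, the gene of a cytokine that caspase-1 cleaves, rose by 0.52 ± 0.0917 (SE; adjusted p = 0.0137). The sensor gene Nlrp3 itself stood at 0.34 ± 0.150 (SE; adjusted p = 0.173) and the cytokine gene Il1b at 0.01 (0.861). Casp1, Il18, Nlrp3 and Il1b were dim, with mean deposited signals of 5.22, 5.67, 5.70 and 6.12. Within each group Casp1 had 1 repeated deposited value, as Pycard had on the 3 Ncoa3 shRNA arrays.

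Markers of microglia, the brain cells in which the inflammasome is best known, are given beside these genes. Of 6 microglia markers 2 rose and 0 fell, where 19.5% of all genes passed. The 2 were Cx3cr1 at 0.99 ± 0.199 (SE; limma's adjusted p = 0.0205) and Aif1 at 0.43 ± 0.0719 (SE; adjusted p = 0.0113). The mean normalized level of the 6 markers was 6.18 to 6.45 on the Ncoa3 shRNA arrays and 5.87 to 6.08 on the control arrays, and each marker was dimmer than the median gene, with signals of 5.61 to 6.92. Csf1r stood at 0.17 (adjusted p = 0.529), P2ry12 at 0.07 (0.462), Itgam at 0.07 (0.706) and Tyrobp at 0.29 (0.288). When the experiment entered as a block, 4 of the 6 were higher and 0 lower, where 39.3% of all genes passed. In that fit Csf1r (limma's adjusted p = 0.0383) and Tyrobp (0.0467) passed too. In the deposited values Cx3cr1 did not pass, at 0.70 (limma's adjusted p = 0.109), and Aif1 passed at 0.15 (0.00645). Csf1r, P2ry12 and Itgam stood at -0.12, -0.21 and -0.20 there and Tyrobp at 0.0035, where the median gene stood at -0.25. Aif1 had 1 repeated deposited value on the 3 control arrays. The part of the microglia markers in the inflammasome values was not tested.

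In the lists around Nek8, Nek2 and Nek1, 1 of 4, 1 of 9 and 0 of 5 measured genes passed, where 19.5% of all genes did. Nphp4, a protein of the ciliary transition zone listed with Nek8, rose by 0.43 ± 0.0563 (SE; limma's adjusted p = 0.00542), as 1 of 4 measured genes, and 0 fell. Invs, which gives the inversin compartment its name, stood at 0.11 (adjusted p = 0.382) and its partner gene Anks6 at -0.19 (0.133). Of 9 measured genes around Nek2 and the centrosome linker 0 rose and 1 fell, Cep85, a known inhibitor of Nek2, by 0.22 on the log2 scale (SE 0.0590; adjusted p = 0.0496). The linker gene Cep250 stood at -0.06 (adjusted p = 0.637). Of 5 measured partners of Nek1 0 rose and 0 fell in limma's test, and 1 lay under an unadjusted p of 0.05, Atrip, a sensor of DNA damage, at 0.19 (adjusted p = 0.0737). When the experiment entered as a block, 2 of the 4 genes listed with Nek8 were higher (Nphp4 and Invs, the second with limma's adjusted p = 0.0257) and 1 lower (Anks6, 0.0164). In that fit 2 of the 5 partners of Nek1 were higher, Atrip (adjusted p = 0.0320) and the checkpoint kinase gene Chek1 (0.0223), and the count around Nek2 was again 1 of 9, where 39.3% of all genes passed. Nphp4, Cep85 and Invs each had 1 repeated deposited value within each group, as Atrip had on the 3 control arrays and Chek1 on the 3 Ncoa3 shRNA arrays. There the spread came from the normalization alone.

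Of 11 other measured mitotic kinases 0 rose and 1 fell, where 19.5% of all genes passed. Bub1, a kinase of the spindle checkpoint, fell by 0.25 on the log2 scale (SE 0.0650; limma's adjusted p = 0.0471), with 1 deposited value on all 3 control arrays. Aurka stood at 0.01 (adjusted p = 0.922) and Aurkb at 0.04 (0.765). Among 5 measured markers of dividing cells 1 rose, Top2a at 0.29 (adjusted p = 0.0330), and 1 fell, Cenpf at -0.40 (0.0119), while the proliferation marker Mki67 stood at -0.11 (0.302). Top2a, Cenpf and Mki67 each had 1 repeated deposited value within each group, so their spread there came from the normalization alone. Their deposited differences were 0.0093, -0.68 and -0.39, where that of the median gene was -0.25. When the experiment entered as a block, 2 of the 11 kinases were higher and 3 lower, where 39.3% of all genes passed. Of the 5 markers 1 was higher and 3 lower in that fit, Mki67 among the lower ones (limma's adjusted p = 0.0214).

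**Figure D5:**
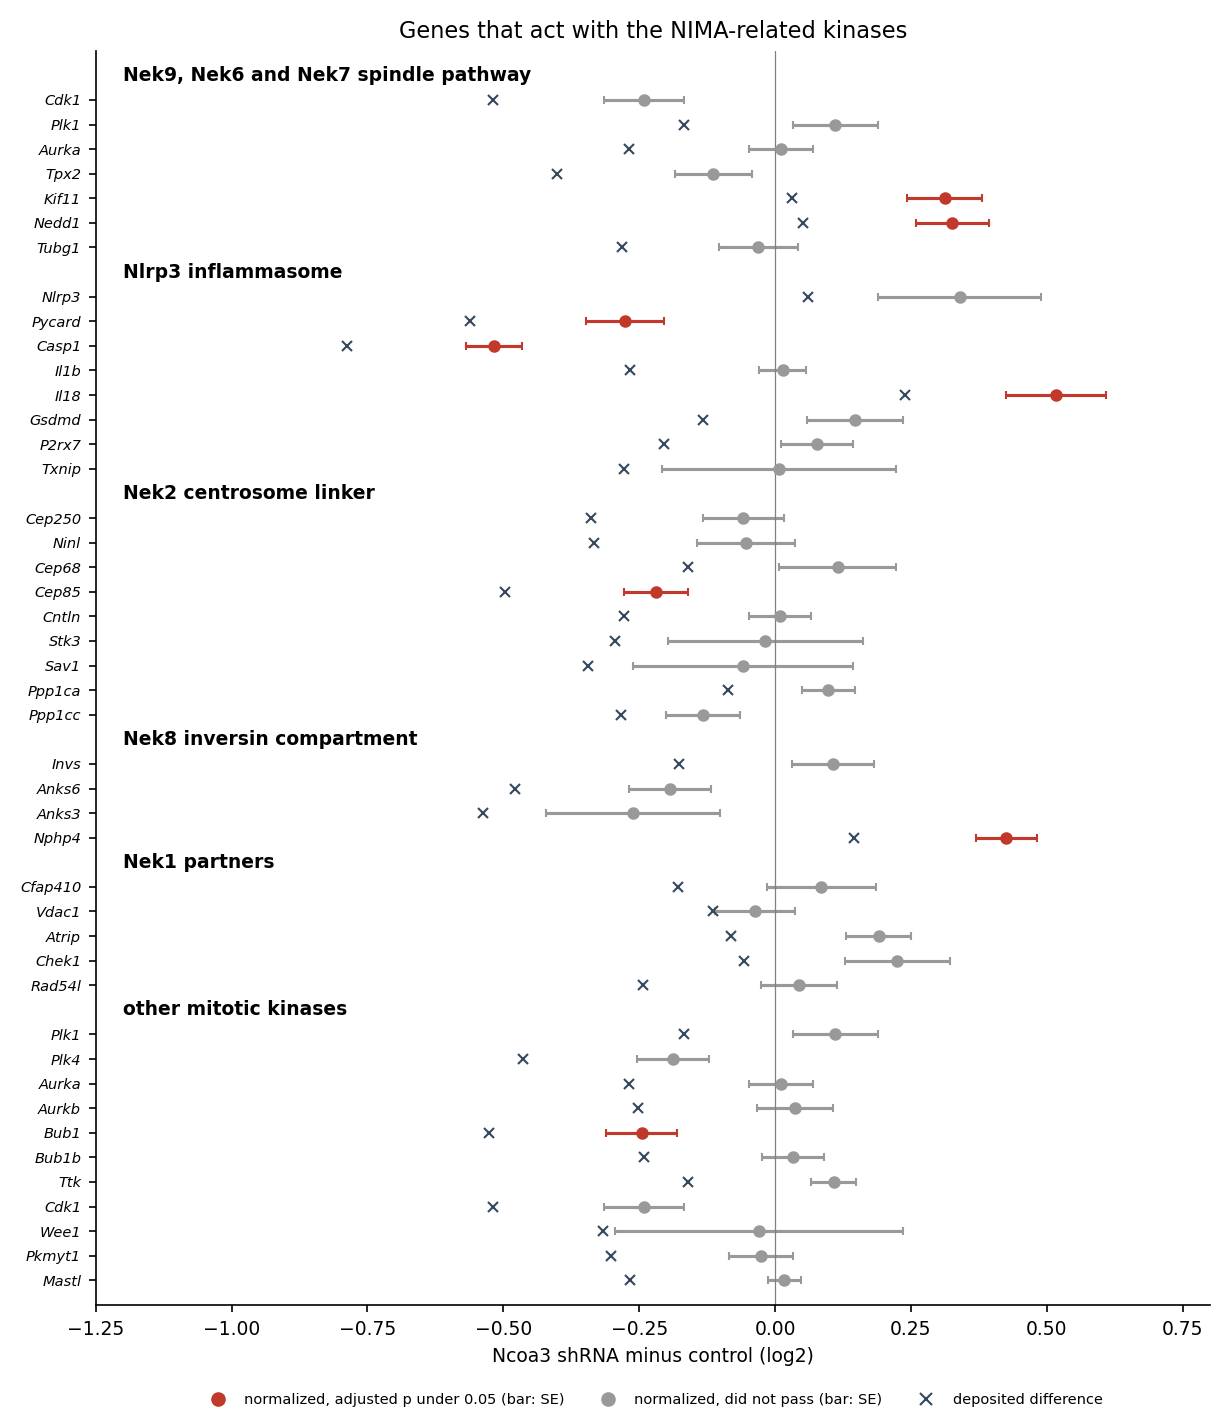
Ncoa3 shRNA minus control shRNA (log2) for the measured genes of 6 lists by role; circles are normalized differences with their SE (red where limma's adjusted p was under 0.05) and crosses the deposited differences. The red genes lie on both sides of 0, from Casp1 at -0.52 to Il18 at 0.52, and every cross lies left of its circle.

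With an experiment left out few genes of the whole table passed unless it was experiment 3. The difference of Casp1, -0.52 over all arrays, was -0.52 without experiment 1 and -0.51 without experiment 2, and that of Kif11, 0.31 over all arrays, was 0.30 and 0.32. Kif11, Nedd1, Pycard, Casp1, Il18, Cep85, Nphp4 and Bub1, and Ncoa3 itself, lost their call both without experiment 1 and without experiment 2, with limma's adjusted p up to 0.285, 0.250, 0.364, 0.0837, 0.179, 0.463, 0.202, 0.364 and 0.134 over all alternatives run. Without Ncoa3 shRNA array 1, Ncoa3 shRNA array 2 or control array 1 the calls of Kif11, Nedd1, Pycard, Il18, Cep85 and Bub1 were lost as well, and without control array 2 those of Kif11, Nedd1, Pycard, Cep85 and Bub1. Without Ncoa3 shRNA array 3 the calls of Pycard, Cep85 and Bub1 were lost, and without control array 3 that of Cep85. With array medians in place of quantiles Pycard, Cep85, Nphp4 and Bub1 did not pass, Bub1 did not without a trend in eBayes, and Cep85 did not among the genes brighter than the median. In none of the 14 or 15 alternatives did any of these 9 genes turn its sign. The block, the fit without a trend and the brighter genes cannot change a difference of means, so they could not turn one.

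The cultures carried the markers of neurons on every array. Of 8 neuron markers 0 rose and 0 fell in limma's test (2 at an unadjusted p under 0.05; in the blocked fit Rbfox3 was lower, with an adjusted p of 0.0206), with a mean normalized level of 12.59 to 12.65 on the Ncoa3 shRNA arrays and 12.58 to 12.67 on the control arrays. Of 5 astrocyte markers 0 passed, none of them at an unadjusted p under 0.05, and their mean level was 9.45 to 10.12 and 9.54 to 10.03 on the Ncoa3 shRNA and the control arrays. Of 5 oligodendrocyte markers 1 rose (Cnp) and 2 fell (Mog and Sox10; with the experiment as a block 2 each way), with a mean level of 8.33 to 8.43 with Ncoa3 shRNA and 8.36 to 8.43 with control shRNA. Over all genes 19.5% passed, and 39.3% with the experiment as a block. In the deposited values 0 of these 5 oligodendrocyte markers were higher and 3 lower, where 47.2% of all genes passed. Mog and Sox10 each had 1 repeated deposited value on the 3 control arrays and another on 2 Ncoa3 shRNA arrays. Their calls thus rest on little replicate spread. The part of these cell types in the Nek values was not tested.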

How the data were processed

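RNA was measured on 6 single-colour arrays, 3 per group. The deposited table holds log2 signals per probe set, which, per the submitters' processing notes, the authors made in Affymetrix Expression Console. Neither its version nor the summarisation, normalization and build is known: not given in the sources used here. A shift between the groups' deposited values was the reason to normalize over all arrays. Symbols came from the annotation of the platform, which can be old: of 36685 probe sets 18511 had 1 symbol, 575 several and 17599 none. The brightest probe set stood for each of 18166 genes, of which 18131 matched the RefSeq gene table (GRCr8).

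All 6 arrays were quantile-normalized and fitted by lmFit and eBayes of limma 3.58.1 (R 4.3.3), with a trend of the variance on mean signal, two-sided. Adjusted p-values (Benjamini-Hochberg, all genes) had a threshold of 0.05. An F test on the experiment, with the group as a term, ran on the same values. Both fits were tested on simulated data with independent noise on each array. Those data held no repeated values, no shift between the groups and no correlation of same-numbered arrays, so the fits were not tested under these features. Per the labels, arrays of 1 number come from 1 experiment. The deviations of same-numbered arrays from their group means correlated at 0.72, 0.55 and 0.78 over genes, against -0.73 to 0.50 between numbers. Deviations within a group sum to 0, which pushes the correlations between numbers down, so those are no independent baseline. A fit blocked on the experiment is printed beside the named genes whose call it changes and the list counts that it moves by over 1.5 times. Alternatives were the deposited values, array medians, cyclic loess, the block, only genes brighter than the median, no trend, and each array or experiment left out.

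The members and lists were chosen with earlier results of these data known. Named genes were all measured members, Ncoa3, the partner genes that passed, up to 3 others that define a list, marker genes and the 5 profiles nearest to Nek7. Promoter windows came from a RefSeq table (GRCr8), and protein sequences were not used here.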

Additional observations from a re-analysis of the deposited data

How the results depend on the processing

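The difference of Nek7 lay between -1.22 and -0.77 over the 15 alternatives, and between -1.05 and -0.77 with 1 array or experiment left out. The deposited values (-1.22) were the one setting of the 15 that moved it by more than the SD of its 3 experiments. The block, the fit without a trend and the brighter genes cannot change a difference of means, for Nek7 or any other gene. Nek7 was chosen for its fall, and its groups did not overlap, so its unchanged sign is no support. The number of the other 5 members passing limma's test, 1 as reported, was 2 in the deposited values, 3 with the experiment as a replicate block, 0 with array medians, with cyclic loess and among the genes brighter than the median (1 each at an unadjusted p under 0.05), and 0 to 2 with 1 array or experiment left out, with 0 at an unadjusted p under 0.05 without experiment 1 or experiment 2. Of all genes 19.5% passed as reported, 47.2% in the deposited values, 39.3% with the block, 10.3% with array medians, 25.4% with cyclic loess, 4.77% of the genes brighter than the median, and 0% to 46% with 1 array or experiment left out. The call of Nek6 was lost without each single array in turn, and its difference turned to -0.0050 in the deposited values, where that of Nek9 turned to -0.08. The difference of Nek1 lay above 0 in 4 of 14 alternatives, and those of Nek4 and Nek8 below 0 in all 14. The number of partner genes passing, 8 as reported, was 25 in the deposited values, 4 with array medians, 17 with the replicate block, 1 of the 14 genes brighter than the median, and 0 to 21 with 1 array or experiment left out. The number of members that differed among experiments, 1 as reported, was 0 in the deposited values, with cyclic loess and without a trend (limma's F test, 2 each at an unadjusted p under 0.05) and 0 of 3 among genes brighter than the median, which leaves out Nek4 (0 at an unadjusted p under 0.05). The replicate block removed no call among the members. The cause of these changes was not tested. No detection calls were used. Of the olfactory and vomeronasal receptor genes 36.5% passed, where 19.5% of all genes did.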
